A study of Danio rerio with 13 samples.

Results

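The genes described here are 37 zebrafish genes from a pathway list for mRNA metabolism. Some belong to mRNA decay itself: decapping factors, exonucleases, deadenylases, nonsense-mediated decay factors and AU-rich element binding proteins. The others are proteasome subunits and activators, which serve to break down proteins, and kinases, chaperones and transport receptors. All 37 come from the 110 genes that the study listed under the Reactome term metabolism of mRNA for this comparison, out of 32520 genes in the count table. Genes that the study also listed under peptide chain elongation, metabolism of proteins, interferon signaling or cytokine signaling in immune system were removed, and these 73 genes serve as context. Because the study chose the Reactome list on these samples, the list is not independent evidence of a change or of its direction. The study asked how hearts without functional Vegfc and Vegfd signalling respond to injury. RNA was sequenced from 12 cryosections, each 8 µm thick, of each fixed adult zebrafish ventricle, collected 180 days after cryoinjury, in which part of the ventricle is killed by freezing. The 6 mutant samples were vegfc(hy-/-);vegfd(-/-) and the 7 control samples were vegfc(+/+):vegfd(+/+). The study describes the vegfc allele (hu5055) as hypomorphic, so some activity may remain, and the vegfd allele (uq9bh) as a null. Both groups were cryoinjured, and the labels do not say which mutants regenerated, so all mutants form 1 group. Samples are named here by group and replicate number, the controls being numbered 1 and 3 to 8.

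Most eukaryotic mRNAs are degraded after their poly(A) tail has been shortened, by the CCR4-NOT complex or by the ribonuclease PARN. The cap is then removed by the decapping complex and the body is digested from the 5′ end by XRN1, or it is digested from the 3′ end by the exosome. Nonsense-mediated decay removes mRNAs with a premature stop codon, and AU-rich elements recruit proteins that either stabilise a transcript or speed its decay. Reactome includes the proteasome in this term because turnover of the AU-rich element binding protein AUF1 is linked to the decay of its target mRNAs. These roles are known mainly from yeast and mammals.

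The libraries were dominated by rn7sl1, the RNA of the signal recognition particle, which took 94.7 to 96.4% of counts in mutants and 60.8 to 91.5% in controls. Totals were 3575023 to 12972634 counts in mutants and 2123784 to 4291363 in controls, while the counts left outside rn7sl1 were 171218 to 596616 in mutants and 256802 to 1070324 in controls. Control 8 stood apart, with 728239 counts on a single further gene, RAB11FIP4 (ENSDARG00000090170). Between pairs of samples, the correlation of log2 CPM across genes, which are not independent replicates, was 0.0741 to 0.344. The targeted genes could not check the labels: vegfc (listed as VEGFC, ENSDARG00000069640) had 32 counts in control 1 and none in any other sample, and vegfd (VEGFD, ENSDARG00000056624) had none in any of the 13 samples. Among defining cell type markers, the cardiomyocyte list (12 genes) summed to 3350 to 11400 counts per 1000000 counts outside rn7sl1 in mutants and 437 to 3500 in controls, with actc1c at 0. On the same scale mutants had 0 to 631 for the erythrocyte list (3 genes), against 0 to 11.2 in controls, and 0 to 360 for the leukocyte list (6 genes, lyz at 0), against 0 to 354 in controls. For the endothelial list (6 genes) mutants had 5.84 to 4980 and controls 0.934 to 745. The highest of these values, in mutant 3, came almost wholly from 1 gene, lyve1b. It had 1326 counts in mutant 3, 61 in mutant 2, 0 in the other mutants and 0 to 184 in controls. For the fibroblast and epicardial list (7 genes, tcf21 at 0) mutants had 415 to 620 and controls 152 to 974. Control 8 gave the lowest control value of the cardiomyocyte, endothelial and fibroblast lists and the highest of the erythrocyte list. Its denominator includes its RAB11FIP4 counts, which makes its values on this scale lower. Cardiac muscle RNA was therefore present in every library and its share of the non-rn7sl1 counts was higher in most mutants. The part of these markers in the values below was not tested, and in bulk sections fewer cells of a type and less RNA per cell cannot be told apart.

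At this depth the mRNA decay genes were seen in patches rather than in every heart. Between 6 and 21 of the 37 genes had at least 1 count in a mutant ventricle (median 12), and between 12 and 22 in a control ventricle (median 15). Of the 481 gene-by-sample values, 281 (58.4%) were 0, 51 were 1 to 3 counts, 23 were 4 to 19 counts and 126 were 20 counts or more. Most values were thus either absent or well above a handful of reads, and 19 genes had over 50% of all their counts in 1 sample. Of the values of the 27 members that were tested, 50.1% were 0, as were 54.6% of the values of all 6138 genes tested. Only tnks1bp1 had a count in every sample. Mutant 6 held the highest count of 9 genes and control 3 that of 8, so single hearts set the apparent level of many members. A count of 0 allows up to 3 counts, which is 5.03 to 17.5 per 1000000 counts outside rn7sl1 in mutants and 2.8 to 11.7 in controls, counting error only.

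**Figure D1:**
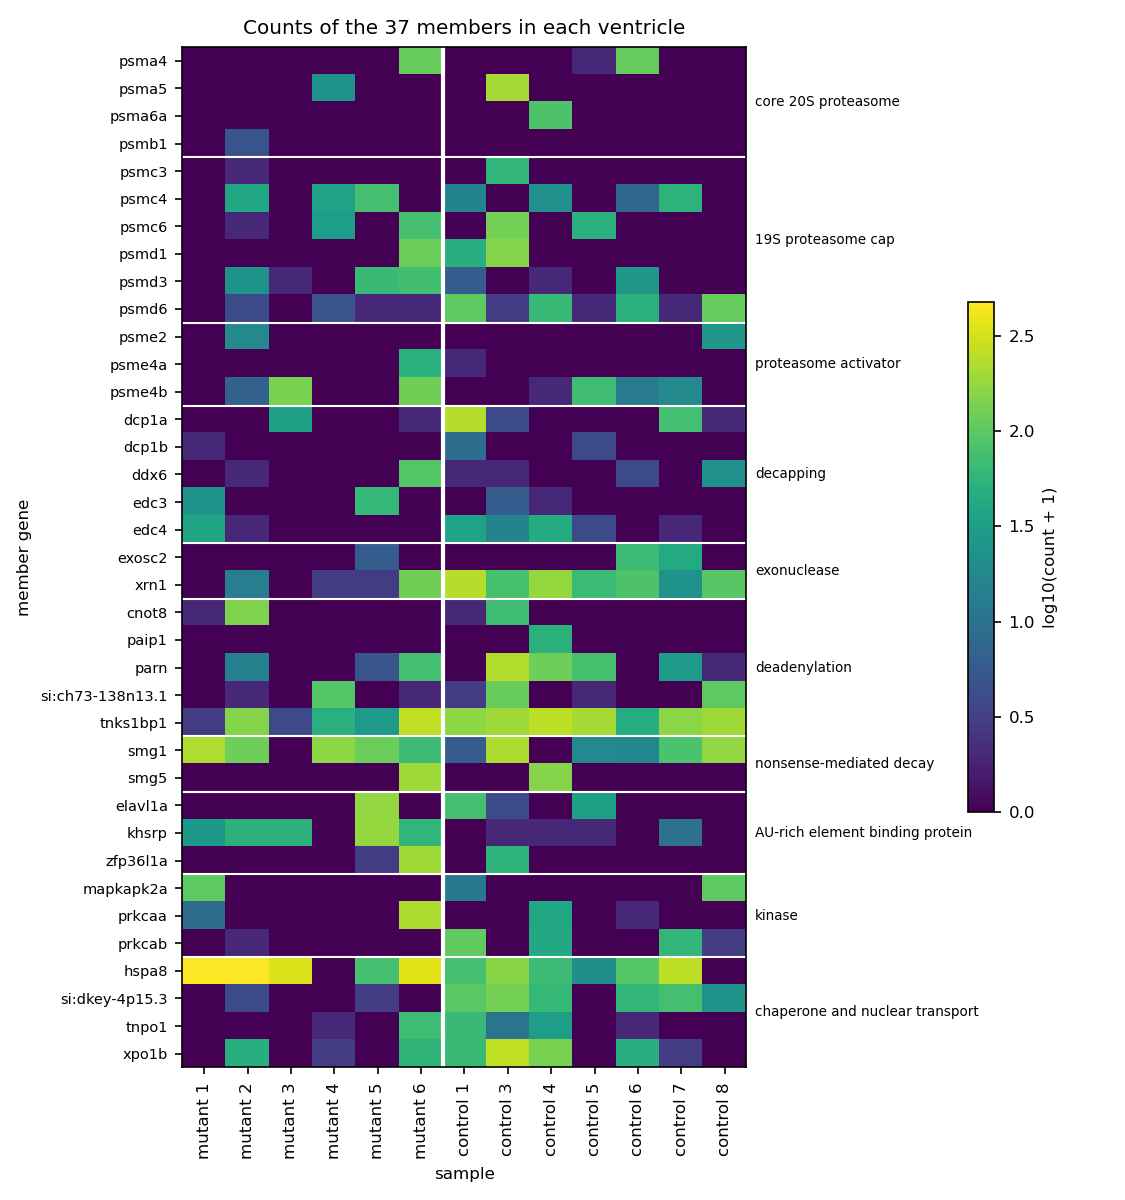
Counts of the 37 mRNA processing and decay genes (rows, grouped by role) in the 6 mutant and 7 control ventricles (columns), coloured by log10(count + 1), with a white line between the groups. The darkest cells are counts of 0, which make up 58.4% of the values, and mutant 6 and control 3 hold the highest count of 9 and 8 genes.

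Summed over the 37 genes, mutants had 406 to 2342 counts (median 846) and controls 550 to 2102 (median 888). Per 1000000 counts outside rn7sl1 these were 1470 to 3930 in mutants (median 2235) and 796 to 4870 in controls (median 2670), so the ranges of the groups overlapped. With RAB11FIP4 also left out of the denominator the lowest control was 1090. Counting only values of 4 or more, the median number of members detected was 8.5 in mutants and 12 in controls. Per 1000000 of all counts the sums were 60.9 to 209 in mutants and 134 to 533 in controls, a difference that moves with the larger share of rn7sl1 in mutants. The number of members detected followed the number of all tested genes detected, at 28.3 to 62.2% of them in the mutants and 33.3 to 55.7% in the controls.

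**Figure D2:**
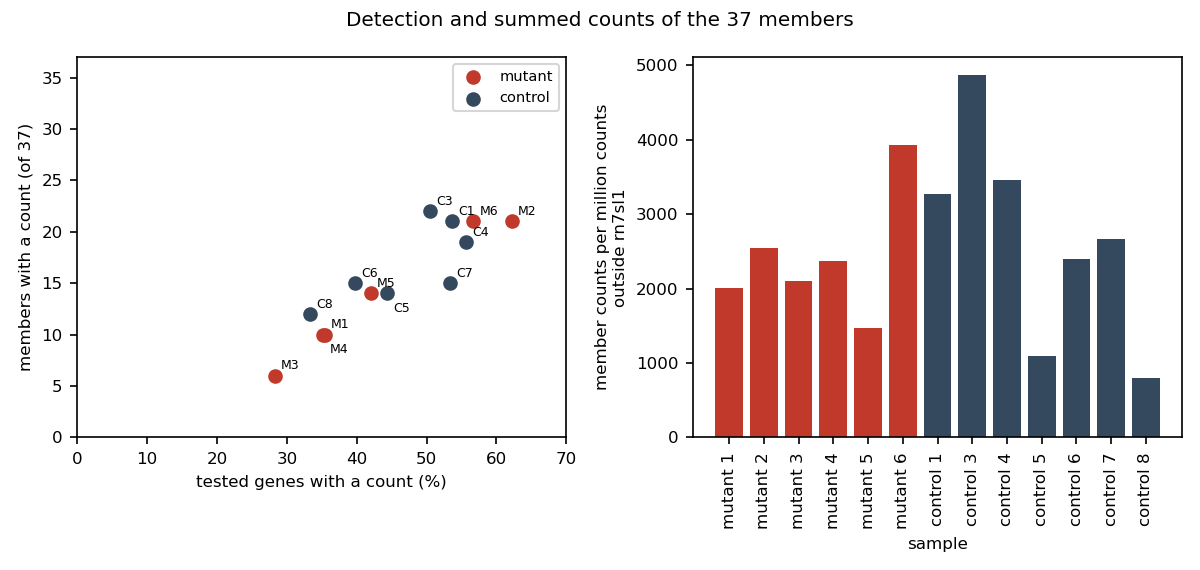
The left plot gives the number of the 37 members with at least 1 count against the percent of all 6138 tested genes with at least 1 count, 1 point per ventricle (M mutant, C control), and the right plot gives the members' summed counts per 1000000 counts outside rn7sl1, 1 bar per ventricle. Detection of members runs from 6 in mutant 3 to 22 in control 3 and tends to be higher where more tested genes were detected, and the mutant and control bars overlap.

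An average of 10 counts or more per library was reached by 27 of the 37 genes, which were tested with edgeR's quasi-likelihood test among 6138 genes. No member passed at an adjusted p under 0.05 (lowest adjusted p 0.152, edgeR), where 0.0978% of all genes did. At an unadjusted p under 0.05, 3 of the 27 (11.1%) were called, all lower in mutants, and 15.2% of all genes tested were called (5.9% higher, 9.3% lower). A share below that of all genes is no result about the members. The 3 were si:dkey-4p15.3, prkcab and psmd6. An exact two-sided permutation test of the mean log2(CPM + 1) over the 1716 divisions of 13 samples into 6 and 7 gave an unadjusted p under 0.05 for 5 of 27 members (18.5%), against 3.91% of all genes, with none passing after adjustment (adjusted p 0.948 or above). Of these, 4 were lower in mutants (tnks1bp1, xrn1, si:dkey-4p15.3 and psmd6), as were 1.99% of all genes, and 1 was higher (khsrp), as were 1.92% of all genes. The permutation test can give no p below 0.000583, so over 6138 genes none could pass after adjustment unless many had such a p. Its adjusted p values therefore say little about single genes. When only genes seen in 7 or more ventricles were considered, 5 of 14 members (35.7%) and 6.93% of all such genes had such a permutation p, and edgeR called 2 of the 14 (14.3%) and 2.54% of all. A share above that of all genes is no result about the members either, because the study listed them on these same samples. DESeq2 gave an adjusted p under 0.05 for 2 members, si:dkey-4p15.3 and psmd6, both lower, and for 3.03% of the genes it gave an adjusted p (2.33% lower). The median log2 fold change of the 27 was -0.56, against -0.30 over all genes tested, with 11 positive and 16 negative. The member median changed sign with upper-quartile scaling in edgeR (0.16, where the median of all genes was 0.39) and with DESeq2, which differs in model as well as scaling (0.38, where the median of all genes was 0.00), and it was -0.88 with RLE scaling in edgeR. DESeq2 gave no p for some members, all with positive fits, and these enter its median. Of its 27 fits, 14 were positive and 13 negative. Most members with a DESeq2 p had negative fits, so the sign of its median rested on those without one. The members without a DESeq2 p were zfp36l1a (21.08), smg5 (21.06), psma5 (5.36, against -2.17 in edgeR), psma4, cnot8, mapkapk2a and prkcaa. The 24 members that were not called had log2 fold changes of -3.34 to 4.59 with standard errors of 1.57 to 2.67.

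**Figure D3:**
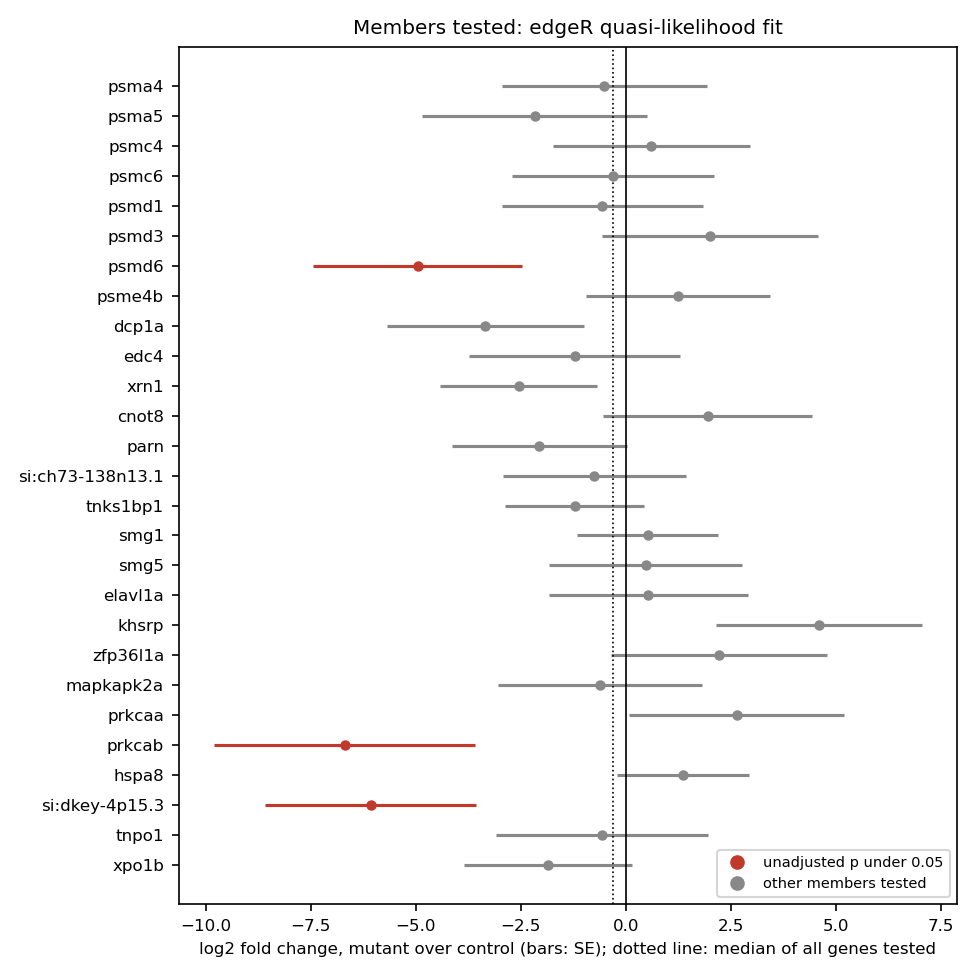
Log2 fold change (mutant over control, x axis) of the 27 tested members from edgeR, ordered by role, with bars of 1 standard error and a dotted line at the median of all genes tested (-0.30). The 3 genes at an unadjusted p under 0.05 (si:dkey-4p15.3, prkcab, psmd6) lie furthest to the left, and the bars of most other members cross 0.

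The proteasome breaks down ubiquitin-marked proteins in a barrel-shaped core particle that is opened by caps. Of its 13 members, 8 were tested, 1 was lower and none was higher at an unadjusted p under 0.05, where 15.2% of all genes were called (9.3% lower), and the median log2 fold change was -0.40. The member called was psmd6 (ENSDARG00000070674), a non-ATPase subunit of the regulatory cap. It had 0 to 4 counts in the mutants (median 1), and 1 to 111 in the controls (median 50). Controls 1, 4, 6 and 8 had between 50 and 111 counts while the remaining controls had 1 or 2, so the groups overlapped through those low controls. The fitted log2 fold change was -4.95 ± 2.49 (SE, unadjusted p = 0.0472, adjusted p = 0.315, edgeR), and the exact permutation p was 0.0495. The call held in 4 of the 13 fits that each left out 1 sample (mutant 4 or control 3, 5 or 7) and was lost without any of the others (p 0.0385 to 0.119 over all 13, edgeR).

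The other cap subunits showed no common direction. The ATPase psmc4 had counts in 3 mutants (34 to 77) and in 4 controls (7 to 53), and its log2 fold change was 0.61. The ATPase psmc6 had 31 and 77 counts in mutants 4 and 6 and 129 and 50 in controls 3 and 5 (log2 fold change -0.30). psmd3, a non-ATPase subunit, had 23, 63 and 73 counts in mutants 2, 5 and 6 and at most 25 in any control (log2 fold change 2.01). psmd1, the large scaffold subunit, had counts in mutant 6 (119) and in 2 controls (48 and 154). Each of these subunits was thus read in hearts of both groups, with wide overlap. The ATPase psmc3 was not tested, with 57 counts in control 3 and 1 in mutant 2.

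The core particle subunits were each seen in very few hearts. psma5 had 23 counts in mutant 4 and 208 in control 3 (log2 fold change -2.17), and psma4 had 112 in mutant 6 and 110 in control 6, with 1 further count in control 5 (log2 fold change -0.51). The untested psma6a had its 84 counts in control 4 and psmb1 its 4 counts in mutant 2. Among the activators, which open the core without the regulatory cap, psme4b had 0 to 138 counts in the mutants (median 3) and 0 to 71 in the controls (median 1), with a log2 fold change of 1.24 ± 2.18 (SE, unadjusted p = 0.57, adjusted p = 1.0, edgeR). With upper-quartile scaling the log2 fold change of psme4b was 5.50 (unadjusted p = 0.0426 in the edgeR fit across all genes). The paralog psme4a had 49 counts in mutant 6 and 1 in control 1, and psme2 had 17 in mutant 2 and 25 in control 8. Mutant 6 was the only ventricle with counts of both psme4 genes.

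Decapping was represented by the cofactors dcp1a and dcp1b, the scaffolds edc3 and edc4 and the helicase ddx6. None of these 5 was called, and 2 were tested. dcp1a (ENSDARG00000100136) had 0 to 32 counts in the mutants (median 0) and 0 to 237 in the controls (median 1), with a log2 fold change of -3.34 ± 2.34 (SE, unadjusted p = 0.152, adjusted p = 0.663, edgeR). Its counts came almost wholly from mutant 3 (32), control 1 (237) and control 7 (75), and its log2 fold change was -7.42 without mutant 3 (unadjusted p = 0.0141 in the edgeR fit across all genes) and 2.22 with upper-quartile scaling. Of the 12 fits without 1 sample in which dcp1a was tested, only that without mutant 3 had p under 0.05 (unadjusted p 0.0141 to 0.259, edgeR). dcp1b had 1 count in mutant 1, 8 in control 1 and 3 in control 5. edc4 had 36 counts in mutant 1 and 35, 15 and 43 in controls 1, 3 and 4 (log2 fold change -1.22). edc3 had 22 and 59 counts in mutants 1 and 5 and at most 5 in a control, and ddx6 had 91 in mutant 6, 21 in control 8 and at most 3 elsewhere.

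The exonuclease xrn1 (ENSDARG00000091652), which degrades decapped mRNA from the 5′ end, was among the best covered members. It had 0 to 123 counts in the mutants (median 2), and 23 to 241 in the controls (median 84). Every control had at least 23 counts, whereas 5 of 6 mutants had 13 or fewer, and mutant 6 with 123 lay inside the control range. In TMM-scaled CPM it averaged 3.63 ± 7.18 in mutants (SD, n = 6) and 21.4 ± 13.7 in controls (SD, n = 7). The exact permutation test gave p = 0.00408 (adjusted p = 0.948), while edgeR gave a log2 fold change of -2.55 ± 1.87 (SE, unadjusted p = 0.172, adjusted p = 0.707). Without mutant 6 the log2 fold change was -4.80 (unadjusted p = 0.0391 in the edgeR fit across all genes). Of the 13 fits that each left out 1 sample, only this 1 had an unadjusted p under 0.05 (p 0.0391 to 0.256, edgeR). The exosome subunit exosc2 was not tested, with 5 counts in mutant 5 and 66 and 42 in controls 6 and 7.

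**Figure D4:**
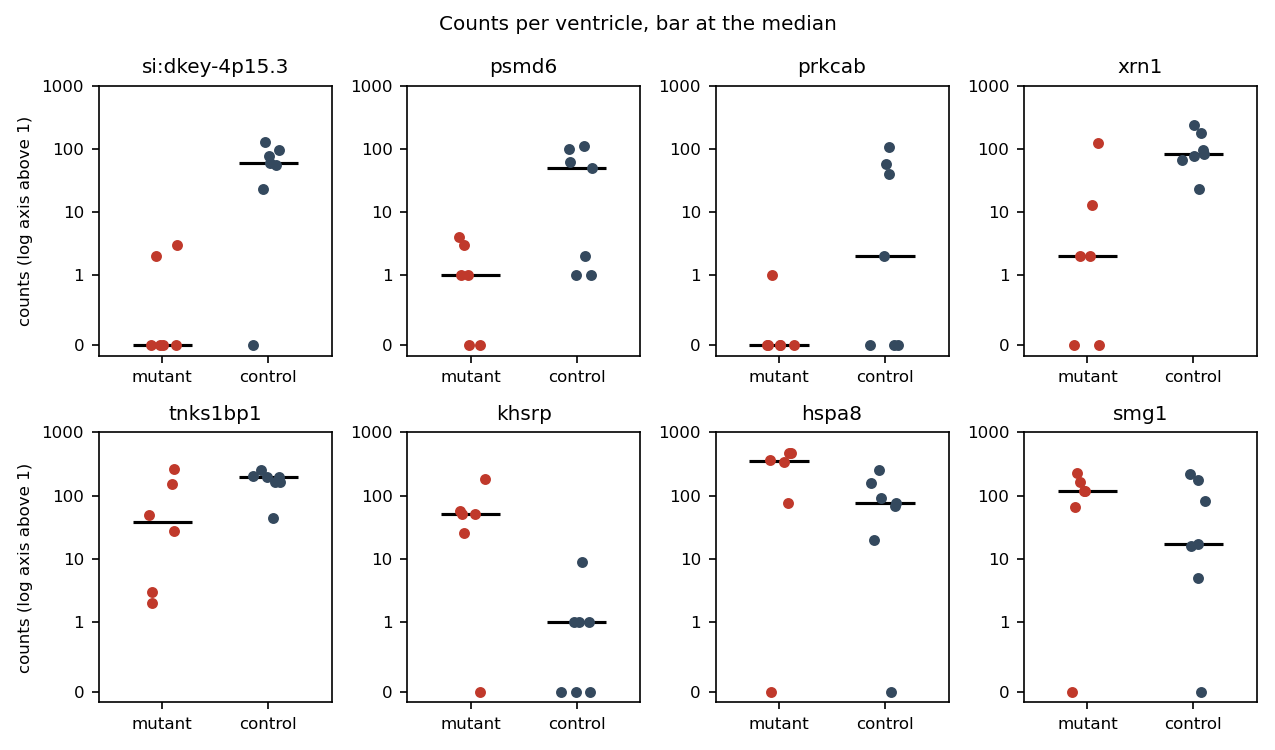
Counts in each mutant and control ventricle for 8 members (1 point per ventricle, y axis logarithmic above 1 and linear below it, black bar at the group median). For si:dkey-4p15.3 and xrn1 most mutants lie near 0 and most controls above them, khsrp shows the opposite order, and hspa8 and smg1 overlap.

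Deadenylation was represented by 5 members, of which 4 were tested and none was called by edgeR. The protein made by tnks1bp1 (ENSDARG00000068760) binds tankyrase and associates with CCR4-NOT. It had 2 to 264 counts in the mutants (median 38) and 44 to 254 in the controls (median 195). In raw counts, not scaled for library size, mutants 1, 3 and 5, with 2, 3 and 27 counts, were below every control. Mutants 2 and 4 lay within the control range of raw counts and mutant 6 was above it, an order that need not hold in CPM. In TMM-scaled CPM the mean was 14.8 in mutants and 34.6 in controls, with an exact permutation p of 0.0332 and a log2 fold change of -1.22 ± 1.65 (SE, unadjusted p = 0.46, adjusted p = 1.0, edgeR). The related gene si:ch73-138n13.1, which the study assigned to the same human gene, had 0 to 93 counts in the mutants (median 0.5) and 0 to 113 in the controls (median 1), with a log2 fold change of -0.75 ± 2.18 (SE, unadjusted p = 0.731, adjusted p = 1.0, edgeR). Its counts stood in mutant 4 (93) and controls 3 and 8 (113 and 101), and without control 8 its log2 fold change was 0.42.

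The poly(A) ribonuclease gene parn (ENSDARG00000102634) had 0 to 75 counts in the mutants (median 2) and 0 to 231 in the controls (median 29). Mutants 1, 3 and 4 and controls 1 and 6 had none, and the log2 fold change was -2.06 ± 2.08 (SE, unadjusted p = 0.322, adjusted p = 0.955, edgeR). The deadenylase subunit cnot8 had 144 counts in mutant 2 and 70 in control 3, with 1 count in each of mutant 1 and control 1. paip1, whose product binds poly(A)-binding protein, had its 52 counts in control 4. Each of these last genes rested on 1 heart per group at most.

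The kinase gene smg1 (ENSDARG00000054570), whose product phosphorylates UPF1 in nonsense-mediated decay, had 0 to 229 counts in the mutants (median 118.5) and 0 to 221 in the controls (median 17). Of the 6 mutants, 5 had between 67 and 229 counts and 4 of 7 controls had 17 or fewer, but controls 3, 7 and 8 reached 83 to 221. Its log2 fold change was 0.52 ± 1.67 (SE, unadjusted p = 0.757, adjusted p = 1.0, edgeR), and it turned to -0.55 with upper-quartile scaling and -0.51 with unscaled library sizes. smg5, which is recruited to phosphorylated UPF1, had 195 counts in mutant 6 and 154 in control 4 (log2 fold change 0.47).

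Among the AU-rich element binding proteins, khsrp (ENSDARG00000026489), a KH-domain protein that promotes decay of its targets in mammals, differed most between the groups. It had 0 to 180 counts in the mutants (median 51) and 0 to 9 in the controls (median 1). All mutants except mutant 4 had 26 or more counts and no control had more than 9, so mutant 4, with none, was the mutant that overlapped the controls. It averaged 9.97 ± 9.44 CPM in mutants (SD, n = 6) and 0.397 ± 0.841 CPM in controls (SD, n = 7). The exact permutation p was 0.00874 (adjusted p = 0.948), and the fitted log2 fold change was 4.59 ± 2.45 (SE, unadjusted p = 0.0615, adjusted p = 0.379, edgeR). Without control 7, the control with 9 counts, it was 6.64 (unadjusted p = 0.0185 in the edgeR fit across all genes). Of the 13 fits that each left out 1 sample, only this 1 had an unadjusted p under 0.05 (p 0.0185 to 0.153, edgeR).

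Both other genes of this class were tested and not called. elavl1a, a homolog of the mRNA-stabilising HuR, had 175 counts in mutant 5 and 77, 3 and 32 in controls 1, 3 and 5 (log2 fold change 0.54). The zinc-finger gene zfp36l1a, whose mammalian counterpart promotes decay, had 196 counts in mutant 6, 2 in mutant 5 and 53 in control 3 (log2 fold change 2.21).

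The 3 kinases phosphorylate AU-rich element binding proteins in mammals. prkcab (ENSDARG00000099841), 1 of a pair of genes for protein kinase C alpha, had 0 or 1 count in the mutants (median 0), and 0 to 107 in the controls (median 2). Its counts came from controls 1, 4 and 7 (107, 40 and 58), while the remaining controls had 2 or none and overlapped the mutants. The fitted log2 fold change was -6.69 ± 3.11 (SE, unadjusted p = 0.0312, adjusted p = 0.255, edgeR), and the exact permutation p was 0.119. Without mutant 3 or mutant 6 the edgeR p was 0.0505 or 0.0528, and without control 1 the gene averaged too few counts to be tested. Its partner prkcaa (ENSDARG00000115657) had 0 to 222 counts in the mutants (median 0) and 0 to 38 in the controls (median 0), with a log2 fold change of 2.64 ± 2.56 (SE, unadjusted p = 0.303, adjusted p = 0.94, edgeR). Almost all of its counts lay in mutant 6 (222) and control 4 (38), and without control 4 the log2 fold change was 6.49 (unadjusted p = 0.0443 in the edgeR fit across all genes). Of the 12 fits without 1 sample in which prkcaa was tested, only that without control 4 had p under 0.05 (unadjusted p 0.0443 to 0.373, edgeR). Of all ventricles, control 4 was the only 1 with counts of both kinase C genes. mapkapk2a, a kinase activated by stress signalling, had 103 counts in mutant 1 and 11 and 102 in controls 1 and 8 (log2 fold change -0.61).

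Hspa8 is the constitutive cytosolic chaperone of the Hsp70 family, and 2 members, hspa8 and si:dkey-4p15.3, are assigned by the study to the human gene. hspa8 (ENSDARG00000068992) had 0 to 475 counts in the mutants (median 352) and 0 to 255 in the controls (median 77). In raw counts, mutants 1, 2, 3 and 6 exceeded every control, mutant 5 fell inside the control range, and mutant 4 and control 8 had none. Raw counts are not scaled for library size, so this order of single hearts need not hold in CPM. It averaged 50.5 ± 39.7 CPM in mutants (SD, n = 6) and 19.8 ± 21.6 CPM in controls (SD, n = 7), with a log2 fold change of 1.35 ± 1.57 (SE, unadjusted p = 0.391, adjusted p = 0.99, edgeR) and an exact permutation p of 0.382. hspa8 alone made up between 0 and 59.8% of the counts of all members in mutants and between 0 and 28.7% in controls.

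The second copy was nearly absent from the mutants. si:dkey-4p15.3 (ENSDARG00000037403) had 0 to 3 counts in the mutants (median 0), and 0 to 131 in the controls (median 61). Of the 7 controls, 6 had 23 counts or more, and only control 5, with none, overlapped the mutants. It averaged 0.163 ± 0.279 CPM in mutants (SD, n = 6) and 12.3 ± 7.36 CPM in controls (SD, n = 7). The fitted log2 fold change was -6.07 ± 2.51 (SE, unadjusted p = 0.0157, adjusted p = 0.152, edgeR), the exact permutation p was 0.00466 (adjusted p = 0.948), and DESeq2 gave -6.57 with an adjusted p of 0.00611. It stayed at an unadjusted p under 0.05 in all 13 fits that each left out 1 sample (p 0.0114 to 0.0304, edgeR).

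Within single hearts, hspa8 took 97.4 to 100% of the counts of the pair in the 5 mutants with any, and 0 to 100% in the 7 controls. Of the controls, 5 lay between 44.3 and 76.8%, control 5 at 100% and control 8 at 0%. This share does not depend on library scaling, but the study assigned both genes to the same human gene, and their sequences were not compared here. Any reads that match both copies could be lost or misassigned by the mapping-quality limit. The division of counts between the copies is therefore uncertain, and it was not tested beyond the values of each gene.

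**Figure D5:**
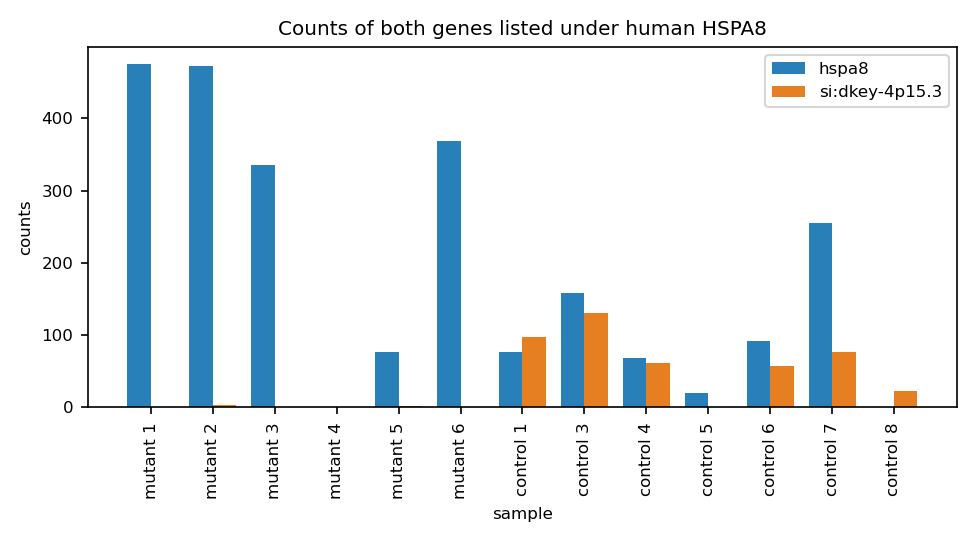
Counts of hspa8 and of si:dkey-4p15.3 in each mutant and control ventricle. In the mutants nearly all counts of the pair belong to hspa8 (97.4 to 100% where there are any), while in 5 controls both copies have counts, with hspa8 at 44.3 to 76.8%.

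The transport receptors completed the set. xpo1b, an exportin that carries proteins and some RNAs out of the nucleus, had 0 to 55 counts in the mutants (median 1) and 0 to 260 in the controls (median 48), with a log2 fold change of -1.85 ± 1.99 (SE, unadjusted p = 0.353, adjusted p = 0.973, edgeR). tnpo1, an importin for RNA-binding proteins, had 70 counts in mutant 6 and 62, 10 and 30 in controls 1, 3 and 4 (log2 fold change -0.57). Neither was called.

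Other genes of the same machinery were sparse too. Of 57 further decay genes, which include the LSM, CNOT, exosome, SMG and UPF families, 19 were tested, 3 were lower and none was higher at an unadjusted p under 0.05 (edgeR), with a median log2 fold change of 0.11. This is about the share called over all genes (15.2%), so it is no result about these genes. The 3 were LSM2, LSM5 and ZFP36L2, each read in few hearts. LSM2 had 1 count over the mutants and 157 over the controls, 134 of them in control 3. LSM5 had none over the mutants and 142 over the controls, all in 2 controls. ZFP36L2 had none over the mutants and 170 over the controls, 122 of them in control 4. Of the 57 genes, 15 had no count in any sample, and a further entry for lsm2 was among them. LSM2 and LSM5 belong to the LSM ring that binds shortened tails and promotes decapping, and ZFP36L2 is a relative of zfp36l1a. Of 35 further proteasome subunits, 3 were tested and none was called. Of the other 73 genes of the Reactome list, many of them ribosomal protein genes, 67 were tested, 4 were higher (rpl5b, rpl6, rpl7 and the kinase C gene prkcdb) and 1 was lower (eif4a2), against 15.2% of all genes called, with a median log2 fold change of 0.85. None of these genes passed after adjustment (adjusted p 0.103 or above for those called, edgeR).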

How the data were processed

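Per the labels and the study's methods, RNA from cryosections was depleted of ribosomal RNA and sequenced as stranded libraries. The authors trimmed reads with Skewer, mapped them to GRCz11 with BWA 0.7.17 and counted them per gene with featureCounts 1.5.0, on the correct strand and at a mapping quality of at least 20. BWA does not align across introns, so reads over splice junctions can be lost. The deposited values are raw counts, 1 column per sample. Nothing in the labels states more about separate animals than 1 sample per ventricle, so p-values measure the spread between these samples.

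The 6138 genes whose mean count reached 10 were tested with edgeR 4.0.16 (R 4.3.3), TMM scaling, quasi-likelihood test and Benjamini-Hochberg adjustment over all of them, without covariates. The filter left 27 of 37 members, and a gene can pass it through 1 group or 1 sample. CPM are per 1000000 TMM-scaled counts, rn7sl1 included, and the permutation test used a pseudocount of 1 and was two-sided. Gene names came from the study's list and from an identifier table. Lists were matched by symbol (56 of 66 decay symbols, 34 of 44 proteasome symbols, and for markers 10 of 18 cardiomyocyte, 3 of 6 erythrocyte, 6 of 8 leukocyte, 6 of 10 endothelial and 6 of 10 fibroblast and epicardial symbols). The scripts were tested on simulated counts with known fold changes, as a check of the code and not of the p-values in these samples.

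Values were given in full for members at an unadjusted p under 0.05, for the 8 members with counts in the most samples, and for pairs that share a human ortholog, with dcp1a and dcp1b added as a pair. Members and lists were chosen with earlier results of these data known. Alternatives were RLE, upper-quartile and no scaling, rn7sl1 left out, no filter, detection in 7 or more samples as the filter, edgeR's likelihood ratio test, DESeq2 1.42.0, a replicate block, each sample left out, at least 4 counts as detection and other denominators. The shares of calls among genes detected in 7 or more samples, and the denominator without the second gene of control 8, were added after seeing the data.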

Additional observations from a re-analysis of the deposited data

Results flagged for a closer look

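For the named members and the depth measures, the gap between the most extreme sample of a group and its nearest neighbour was divided by the range of the group and set against Dixon's critical value (0.625 for 6 mutants, 0.568 for 7 controls). It was exceeded in 13 of 36 groups. The chance rate of 1 in 20 (about 1.8 groups) assumes normally distributed values, which the members' sparse counts are not. A group in which only 1 sample has counts exceeds the critical value by construction. The number of groups is therefore no evidence of an excess of unusual samples, and the ratios only describe which sample lay apart.

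Among mutants, mutant 6 stood above the others for xrn1 (0.838 of the range), parn (0.714) and prkcaa (0.961). Mutant 4 stood above the others for si:ch73-138n13.1 (0.989), mutant 3 for dcp1a (0.972) and mutant 2 for prkcab (1.0, from 1 count where the other mutants had none). Among controls, control 7 stood above the others for khsrp (0.917) and hspa8 (0.648), control 1 for dcp1a (0.583), control 4 for prkcaa (0.958) and control 5 for psme4b (0.678). Control 8 also stood apart in depth, with the most counts outside rn7sl1 (0.694) and the lowest share of rn7sl1 (0.876). The cause was not tested for any of these samples.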

How the results depend on the processing

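The main limits are depth, patchy counts and the make-up of the libraries. The rn7sl1 share was at least 94.7% in every mutant and at most 91.5% in every control. Genotype and this library difference therefore cannot be told apart in any comparison of the groups, and the part of each was not tested. Of 27 members tested, 3 had an unadjusted p under 0.05 in edgeR, 0 higher and 3 lower, where 15.2% of all genes did. The number was 5 with upper-quartile scaling (2 higher, all genes 21.5%), 7 of 37 without a filter (2 higher, 5 lower, all genes 34.9%), 1 with the likelihood ratio test (1 lower, all genes 11.7%), 5 with DESeq2 (1 higher, 15.4% of all genes with a DESeq2 p) and 5 with the permutation test (1 higher, all genes 3.91%). It stayed at 3 with 1 higher when rn7sl1 was left out (all genes 15.4%) or detection in 7 or more samples was required (3 of 14, all genes 4.54%). Shares above that of all genes are no result about the members, which the study listed on these samples. Leaving out single samples changed the number of members tested, and gave 1 to 5 members called (0 to 2 higher, 1 to 4 lower). The extremes were 1 of 23 tested without control 1 and 5 of 25 tested without control 3. Over these fits, the share of all genes called ran from 14.6% (without control 3) to 19.3% (without mutant 2). These counts are no result about the members. After adjustment, 0 members passed in edgeR and whenever a sample was left out (0), and 2 with DESeq2. The median log2 fold change of -0.56 was 0.16 with upper-quartile scaling, -1.74 unscaled, 0.38 in DESeq2 (members without a DESeq2 p included) and -1.56 to 0.26 with single samples left out. The summed counts per 1000000 of all counts had a mutant-to-control ratio of 0.299. Unscaled, 4 members were called, all lower, where 18.1% of all genes were called and the median of all genes was -1.51. In that fit, 2 of the 67 other Reactome genes tested were higher and 1 was lower. Of the other proteasome genes 1 of 3 tested was lower, and of the other decay genes 3 of 19. These counts are no result about those genes. For named genes, psme4b was 5.50 and dcp1a turned to 2.22 with upper-quartile scaling, smg1 to -0.55 with it and to -0.51 unscaled, and si:ch73-138n13.1 ranged from -5.98 to 0.42 with single samples left out. The cause was not tested.

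Deviations from the group mean correlated little between samples with the same replicate number (r -0.0237 to 0.0884 over 5 numbers). In counts this sparse, such values cannot tell whether the numbers pair the samples. With the replicate number as a block, 0 members were called (0 higher, 0 lower), where 1.78% of all genes were. A share this near that of all genes is no result about the members. The median was -1.06 (all genes -0.71) and dcp1a was 0.62. In the same edgeR fit across all genes, si:dkey-4p15.3 had an unadjusted p of 0.0598. Only the 5 shared numbers inform this fit.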
